A study of Mus musculus with 31 samples.

Results

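The opioid peptides and receptors are 7 of the 21154 genes that the array's RefSeq accessions name. They are the peptide precursors Penk, Pdyn and Pnoc and the receptors Oprm1, Oprd1, Oprk1 and Oprl1, chosen by name, and all 7 passed the filter on signal above background. Penk encodes proenkephalin, the source of the enkephalins, which act mainly on the delta (Oprd1) and mu (Oprm1) receptors. Pdyn encodes prodynorphin, the source of the dynorphins, which act on the kappa receptor (Oprk1), and Pnoc encodes the precursor of nociceptin, which acts on Oprl1. All 4 receptors couple to inhibitory G proteins. In the striatum, of which the nucleus accumbens (NAc) is the ventral part, enkephalin is made chiefly by projection neurons of the indirect pathway and dynorphin by those of the direct pathway, and both peptides are studied for their part in reward and aversion.

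RNA came from the NAc and the medial prefrontal cortex (mPFC) of mice labelled female, of the strains DBA2/J (DBA) and C57BL/6J (C57), aged 12 weeks, after repeated cross-fostering (RCF) or control handling as pups. RCF litters went to a new dam each day from postnatal day 1 to day 4, reaching 4 adoptive mothers in all, while control litters were lifted from the nest and given back to their own dam. The series title ties the study to Xlr4 expression and vulnerability to cocaine. The 31 one-colour Agilent arrays gave 27 samples after near-duplicate arrays of a group were averaged: 4 RCF and 4 control in the DBA NAc, 3 and 3 in the DBA mPFC, 4 and 2 in the C57 NAc, and 4 and 3 in the C57 mPFC. The labels do not say which arrays share an animal or litter, so p-values measure only the spread between these samples, which may in part be technical. Each value is the log2 signal less the 75th percentile of its array, called log2 relative signal below, and a difference is given ± the standard error of 1 limma model of all 8 groups. Levels of different genes come from different probes and were not set against each other.

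Several samples went against their labels. A region score (the mean of 12 striatal projection neuron markers minus the mean of 12 cortical excitatory neuron markers) ran from 3.92 to 7.11 in the 7 DBA NAc samples that fitted their labels and from −1.84 to −1.50 in the 5 such DBA mPFC samples. It ran from 6.23 to 6.89 in 4 C57 NAc samples and from −1.10 to 0.47 in 5 C57 mPFC samples. On the mPFC side lay C57 NAc RCF 1 at −0.75 and the sample averaged from C57 NAc control 1 and 3 at −0.87. On the NAc side lay C57 mPFC RCF 1 at 4.47 and C57 mPFC control 3 at 3.92. A strain score (Glo1 and Gabra2 minus Gpnmb) read 7.26 for DBA NAc control 4 and 5.35 for DBA mPFC control 1, within the C57 range of 5.12 to 7.65 and below the DBA range of 10.68 to 12.48. DBA mPFC control 1 also had an Xist level (the RNA of the inactive X chromosome, a female marker) of −5.87, against −0.28 to 1.504 in the other 26 samples. These 6 samples are called in doubt. Where leaving them out changes a call of the 7 genes, and in some other places, results are given with and without them. Leaving them out removes samples by markers that track several opioid genes, so the second value is a description beside the first, and the C57 NAc then has 1 control sample, whose spread is taken from the other groups. Each of the 4 slides held 1 strain and 1 region with both treatments, so slide cannot be told apart from strain or region, whereas RCF and control shared a slide. In these tissue samples, fewer cells of a type and less RNA per cell cannot be told apart.

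**Figure D1:**
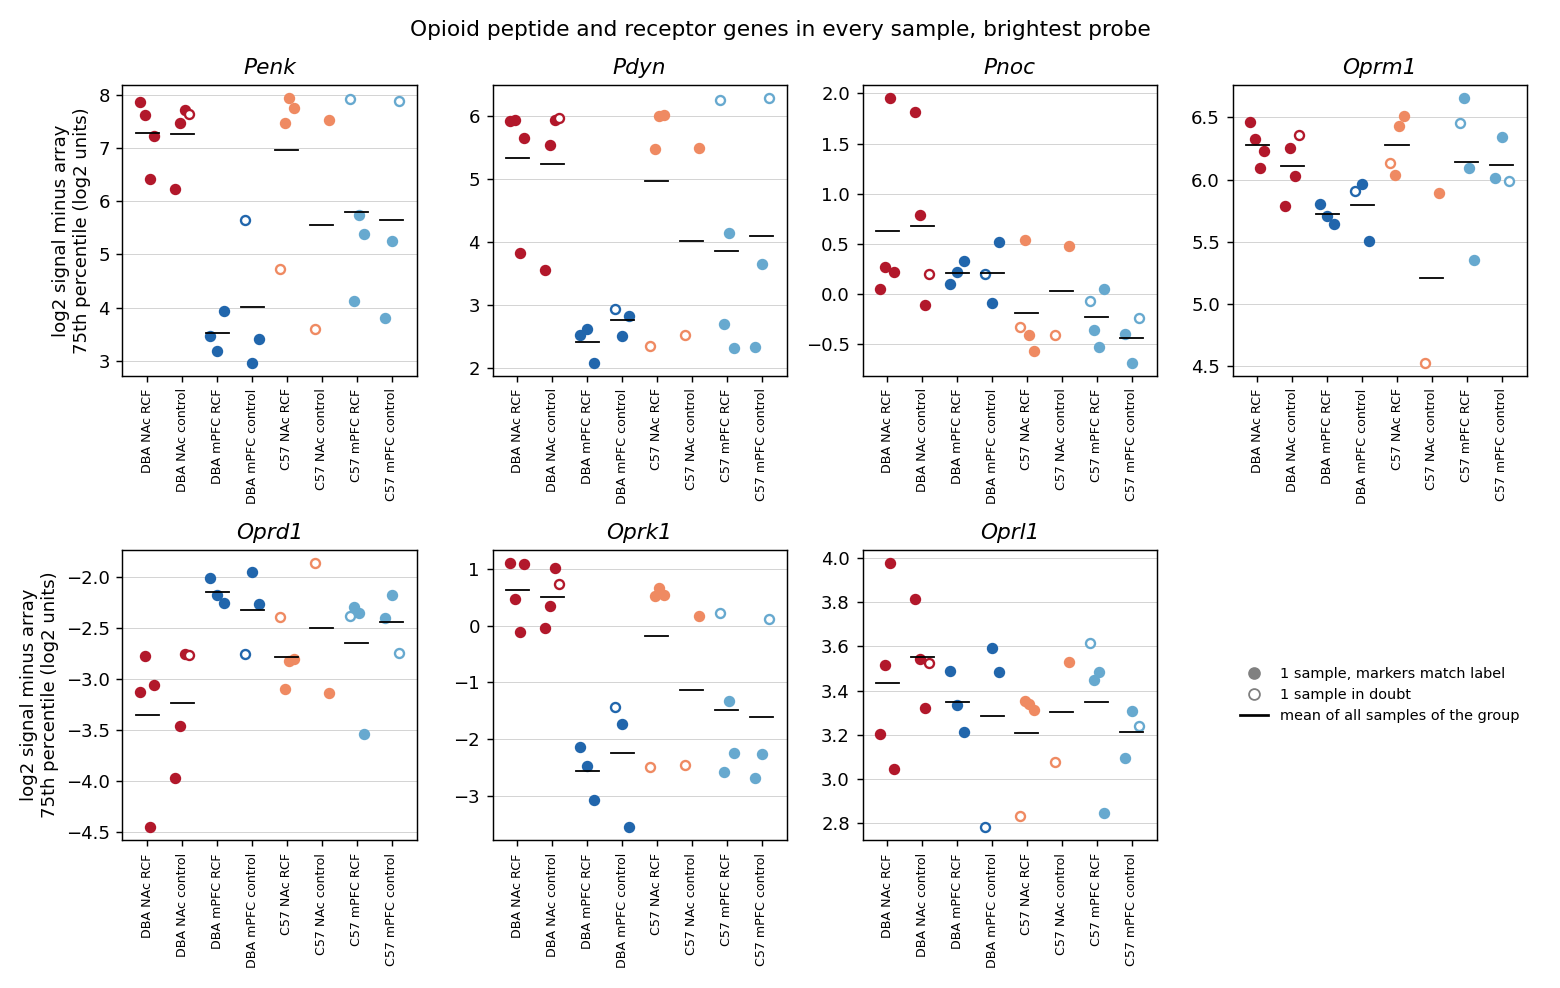
Log2 relative signal (y axes, log2 units) of the brightest probe of the 7 genes in every sample of the 8 groups (x axes). Filled points are samples whose markers fit their labels, open points are samples in doubt, and lines are means of all samples of a group. Among filled points, all NAc samples lie above all mPFC samples for Penk and Oprk1, while for Pdyn C57 mPFC RCF 3 (4.15) lies above DBA NAc RCF 3 (3.82) and DBA NAc control 1 (3.55), and Oprd1 is lower in the DBA NAc than in the DBA mPFC.

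Between regions, the NAc of RCF DBA mice had more Penk, Pdyn and Oprk1 RNA and less Oprd1 RNA than their mPFC, and Pnoc, Oprm1 and Oprl1 did not pass the test. That made 3 genes higher and 1 lower of 7, where 39% of all 30165 features tested were called, 11.9% higher and 27.1% lower. In control DBA mice 2 genes, Penk and Oprk1, were higher and none lower (38.3% of all features, 10.7% higher and 27.6% lower), and 3 were higher and 1 lower once the samples in doubt were left out (37.1%). In C57 mice no gene was called with all samples: 7.7% of all features were called in RCF mice (2.96% higher and 4.73% lower) and 0.0995% in control mice (0.0564% higher and 0.0431% lower), and 7489 and 3570 had an unadjusted p under 0.05. Leaving out the samples in doubt, Penk, Pdyn and Oprk1 were called higher in the NAc of RCF C57 mice (21.9% of all features) and Penk and Oprk1 in control C57 mice (5.8%). Of the features called between regions, 30.6% were higher in the NAc of RCF and 28% of control DBA mice, and 43.7% and 43.5% with quantile normalization, while no called opioid gene changed direction under another scaling. The median difference of the 7 genes was 0.56 in RCF and 0.46 in control DBA mice, against −0.14 and −0.13 for all features.

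Penk, measured by probe A_55_P2035946, had a log2 relative signal of 7.86, 7.62, 6.41 and 7.23 in DBA NAc RCF samples, against 3.47, 3.18 and 3.93 in DBA mPFC RCF samples. The groups did not overlap. Control mice had 6.23, 7.47, 7.72 and 7.65 in the DBA NAc and 5.64, 2.97 and 3.40 in the DBA mPFC, where the high value belongs to DBA mPFC control 1, which carried C57 strain markers, had low Xist (−5.87) and averaged 2.35 over the striatal markers, against 0.27 to 0.46 in the other DBA mPFC samples. The difference of 3.75 ± 0.99 in RCF mice was 13.5-fold (limma, adjusted p = 0.00517), and that of 3.26 ± 0.99 in control mice was 9.6-fold (adjusted p = 0.0126). The control value lost its call without DBA mPFC control 2 and 4 (2.75, adjusted p = 0.069) or control 3 (2.96, adjusted p = 0.055).

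In C57 NAc RCF samples Penk was 4.72, 7.46, 7.94 and 7.76, against 7.92, 4.12, 5.75 and 5.38 in C57 mPFC RCF samples. The first value of each group is the sample in doubt and lies with the other region. In C57 control mice it was 3.60 (in doubt) and 7.52 in the NAc, against 3.80, 5.26 and 7.88 (in doubt) in the mPFC. The differences of 1.18 ± 0.92 and −0.09 ± 1.18 were not called. With only the samples that fitted their labels they were 2.64 ± 0.47 (adjusted p = 0.000721) in RCF mice and 2.99 ± 0.70 (adjusted p = 0.0173) in control mice. Ordered by mean over all samples, Penk was highest in the DBA NAc groups (7.28 ± 0.64 in RCF and 7.27 ± 0.70 in control, SD, n = 4 each), then in the C57 NAc RCF group (6.97 ± 1.51, SD, n = 4), and lowest in the DBA mPFC groups (3.53 ± 0.38 in RCF and 4.00 ± 1.43 in control, SD, n = 3 each). The other C57 groups lay between these, at 5.56 to 5.79, and did not differ beyond their spread. Without the samples in doubt the order of the means within the NAc turned. DBA minus C57 was then −0.44 ± 0.44 in RCF and −0.38 ± 0.66 in control mice, about the size of the standard error or less. The means were then 7.72 in C57 NAc RCF (n = 3) and 7.52 in C57 NAc control (n = 1). The DBA NAc groups had 7.28 in RCF (n = 4) and 7.14 in control (n = 3).

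Pdyn, measured by probe A_52_P586928, was 5.92, 5.93, 3.82 and 5.64 in DBA NAc RCF samples, against 2.52, 2.63 and 2.09 in DBA mPFC RCF samples. In control mice it was 3.55, 5.53, 5.93 and 5.96 in the DBA NAc, against 2.93, 2.51 and 2.82 in the DBA mPFC. Within each treatment the regions did not overlap, and 1 NAc sample of each lay well below the rest. The difference was 2.92 ± 1.00 in RCF mice (7.55-fold, limma adjusted p = 0.0248) and 2.49 ± 1.00 in control mice (5.6-fold, adjusted p = 0.053). The control difference was called without the samples in doubt (2.34 ± 0.68, adjusted p = 0.0125). The RCF call was lost on leaving out any of 5 samples (adjusted p up to 0.074), namely each DBA mPFC RCF sample, DBA NAc RCF 1 and DBA NAc RCF 2. In C57 mice the values were 1.10 ± 0.92 in RCF and −0.08 ± 1.19 in control mice. They became 2.77 ± 0.61 (adjusted p = 0.00356) and 2.50 ± 0.91 (adjusted p = 0.121) without the samples in doubt. A dimmer Pdyn probe, A_66_P123898, correlated with the first at r = 0.86 over 27 samples and was higher in the NAc by 2.71 ± 1.03 in RCF DBA mice (adjusted p = 0.0413), by 2.66 ± 1.03 in control DBA mice (adjusted p = 0.0451) and by 3.33 ± 0.95 in RCF C57 mice (adjusted p = 0.0334). Without the samples in doubt the RCF C57 difference was 4.92 ± 0.69. The dimmer probe was well above background on 28 of 31 arrays. In the C57 mPFC these were 3 of 4 RCF and 2 of 3 control arrays. In control C57 mice it differed by 0.98 ± 1.23 (adjusted p = 0.823), and by 3.75 ± 1.04 (adjusted p = 0.0441) without the samples in doubt.

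Oprk1, the dynorphin receptor, was likewise higher in the NAc. Its log2 relative signal was 1.11, 0.47, −0.11 and 1.08 in DBA NAc RCF samples, against −2.14, −2.47 and −3.07 in DBA mPFC RCF samples. Control mice had −0.04, 0.34, 1.02 and 0.73 in the DBA NAc, against −1.43, −1.73 and −3.55 in the DBA mPFC. No NAc sample reached down to an mPFC sample. The differences were 3.20 ± 0.80 in RCF mice (9.17-fold, adjusted p = 0.00353) and 2.75 ± 0.80 in control mice (6.74-fold, adjusted p = 0.00955). In control mice the call was lost without DBA mPFC control 3 (2.10, adjusted p = 0.076). In C57 mice the differences were 1.29 ± 0.74 in RCF and 0.46 ± 0.95 in control mice, not called. They were 2.62 ± 0.43 (adjusted p = 0.000399) and 2.63 ± 0.65 (adjusted p = 0.0227) without the samples in doubt.

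Oprd1, the delta receptor, ran the other way. It was −3.13, −2.77, −4.46 and −3.06 in DBA NAc RCF samples, against −2.01, −2.17 and −2.26 in DBA mPFC RCF samples, with no overlap. In control mice it was −3.97, −3.46, −2.76 and −2.77 in the DBA NAc, against −2.76, −1.95 and −2.27 in the DBA mPFC, where each group has a sample at about −2.76, in the mPFC the one in doubt, DBA mPFC control 1. The difference was −1.21 ± 0.38 in RCF mice (adjusted p = 0.0167) and −0.91 ± 0.38 in control mice (adjusted p = 0.0642). The RCF call was lost without DBA NAc RCF 3 (−0.84, adjusted p = 0.07) or DBA mPFC RCF 1 and 3 (−1.14, adjusted p = 0.058). The control difference was −1.29 ± 0.43 (adjusted p = 0.0279) without the samples in doubt. In C57 mice Oprd1 differed by −0.14 ± 0.36 in RCF and −0.06 ± 0.46 in control mice, and by −0.18 ± 0.39 and −0.84 ± 0.58 without the samples in doubt, with no call.

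**Figure D2:**
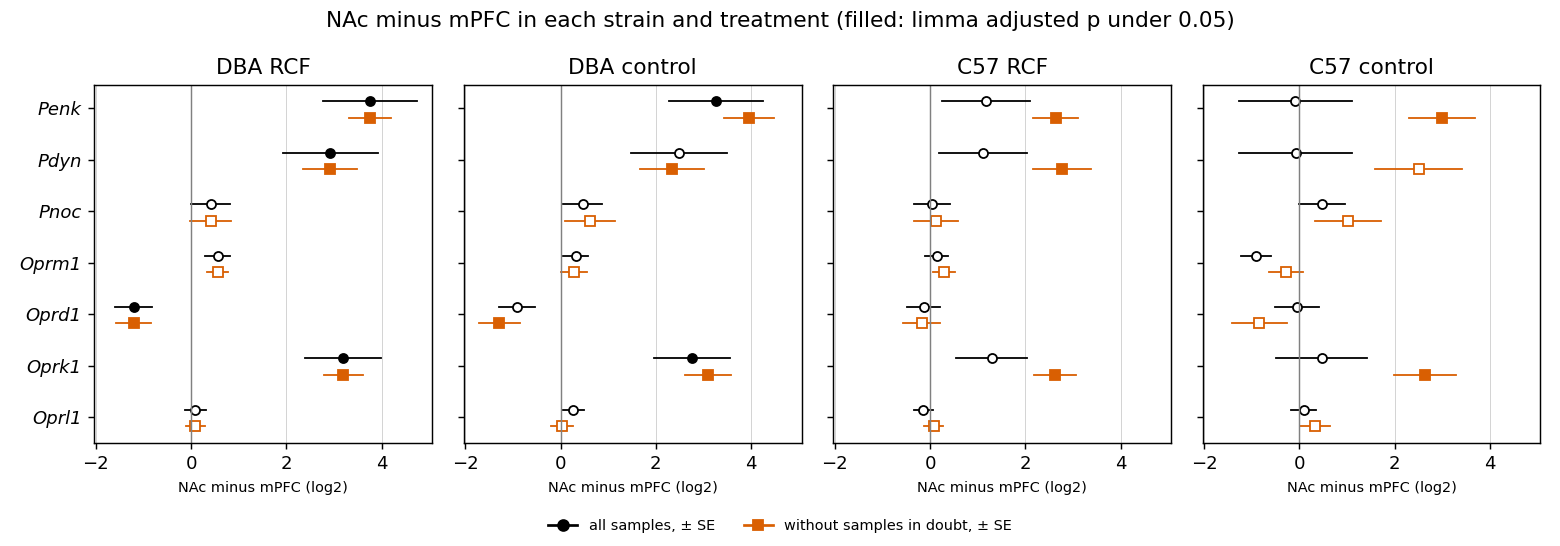
NAc minus mPFC difference (x axes, log2 units, ± SE) of the 7 genes in the 4 strain and treatment combinations. Black circles use all samples, orange squares leave out those in doubt, and filled symbols have an adjusted p under the threshold of 0.05. In C57 mice the differences of Penk, Pdyn and Oprk1 lie between 2.50 and 2.99 without those samples. They are smaller with all samples, and near 0 for Penk and Pdyn in control mice.

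RefSeq promoter entries were matched for 4 of the 7 genes (Pdyn, Oprm1, Oprd1 and Oprl1), and the 250 bases before the start are shown for Pdyn (first of 2 entries) and Oprd1, which have an entry and differed between the regions in opposite directions in RCF DBA mice. Capitals mark matches, on either strand, to the GC box GGGCGG and to CCAAT. The coordinates are those of GRCm38.p6 in RefSeq, on the minus strand, at chr2:129699939-129700188 for Pdyn and chr4:132144487-132144736 for Oprd1.
Pdyn: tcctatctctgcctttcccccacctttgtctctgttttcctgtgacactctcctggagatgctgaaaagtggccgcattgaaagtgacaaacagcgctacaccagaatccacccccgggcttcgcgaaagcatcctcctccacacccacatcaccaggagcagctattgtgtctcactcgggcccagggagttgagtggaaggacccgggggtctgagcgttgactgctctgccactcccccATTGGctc
Oprd1: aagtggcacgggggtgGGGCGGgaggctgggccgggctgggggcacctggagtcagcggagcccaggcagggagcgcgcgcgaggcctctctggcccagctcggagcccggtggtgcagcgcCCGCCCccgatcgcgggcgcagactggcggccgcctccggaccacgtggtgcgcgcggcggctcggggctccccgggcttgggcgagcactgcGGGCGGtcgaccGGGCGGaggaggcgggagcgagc
The Oprd1 window has 80% G and C and 4 GC boxes, whereas the Pdyn window has 57.2% G and C, no GC box and 1 CCAAT match (as ATTGG) just before the start. Of 32851 promoter windows of 250 bases, 32.7% hold a GC box and 33.8% hold CCAAT, and their median G and C content is 52.4%. Neither window holds the cyclic AMP response element TGACGTCA, found in 1.55% of windows. The matches describe these letters only.

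The mu receptor Oprm1 was read by a pair of probes that disagreed. The brighter, A_55_P2025443, lies at about the 98.6th percentile of all probes by median signal, and the dimmer, A_51_P100309, which is printed on 10 spots of each array, at about the 43.7th percentile. Both carry the same RefSeq accession, yet they correlated at only r = 0.35 over 27 samples. The brighter probe read 6.46, 6.33, 6.09 and 6.23 in DBA NAc RCF samples, against 5.81, 5.71 and 5.65 in DBA mPFC RCF samples, a difference of 0.56 ± 0.26 (adjusted p = 0.0964). Control mice had 5.79 to 6.36 in the DBA NAc and 5.51 to 5.96 in the DBA mPFC, which overlap (0.31 ± 0.26). In C57 NAc control samples it read 4.53 (in doubt) and 5.89, against 6.01, 6.34 and 5.99 in the C57 mPFC. That difference of −0.90 ± 0.31 did not pass (adjusted p = 0.251), and without the samples in doubt it was −0.29 ± 0.36.

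With the dimmer probe Oprm1 was higher in the NAc in 3 of the 4 comparisons. It read −1.84, −3.00, −2.32 and −3.70 in DBA NAc RCF samples, against −4.69, −4.86 and −4.68 in DBA mPFC RCF samples (2.02 ± 0.65, adjusted p = 0.0172). Control mice had −1.998, −1.98, −2.22 and −2.12 in the DBA NAc, against −4.98, −4.47 and −4.68 in the DBA mPFC (2.63 ± 0.65, adjusted p = 0.00317). These groups stood clearly apart. It was higher by 2.40 ± 0.60 in the NAc of RCF C57 mice (adjusted p = 0.0168) and by 0.94 ± 0.77 in control C57 mice (adjusted p = 0.698). The control C57 difference was 2.85 ± 0.53 (adjusted p = 0.0047) without the samples in doubt. In a fit of all 43417 probes separately, 38.1%, 37.6%, 8.15% and 0.166% of probes were called in these comparisons (RCF DBA, control DBA, RCF C57 and control C57). The dimmer Oprm1 probe was well above background on 28 of 31 arrays. It fell short only in C57 mice, with 3 of 4 C57 mPFC RCF and 2 of 4 C57 NAc control arrays well above background. What sets the probes apart was not tested.

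Pnoc and Oprl1, the nociceptin precursor and its receptor, did not pass between regions by their brightest probes. Pnoc (A_51_P450469) lay between −0.11 and 1.95 in DBA NAc samples and between −0.09 and 0.52 in DBA mPFC samples, and in both NAc treatment groups 1 sample stood high, DBA NAc RCF 3 at 1.95 and DBA NAc control 1 at 1.82. The differences were 0.41 ± 0.41 in RCF and 0.46 ± 0.41 in control DBA mice. In C57 mice they were 0.04 ± 0.38 and 0.47 ± 0.49. The bright Oprl1 probe (A_55_P2066593) had group means between 3.21 and 3.55, and its regional differences lay between −0.14 and 0.27. The dimmer Oprl1 probe (A_55_P2066598, r = 0.42 with the bright one over 27 samples) was higher in the NAc than in the mPFC of RCF C57 mice by 1.74 ± 0.41 (adjusted p = 0.0132), and by 1.93 ± 0.50 (adjusted p = 0.0114) without the samples in doubt. It was not called in the other 3 regional comparisons, and its strain differences are given with the strains.

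**Figure D3:**
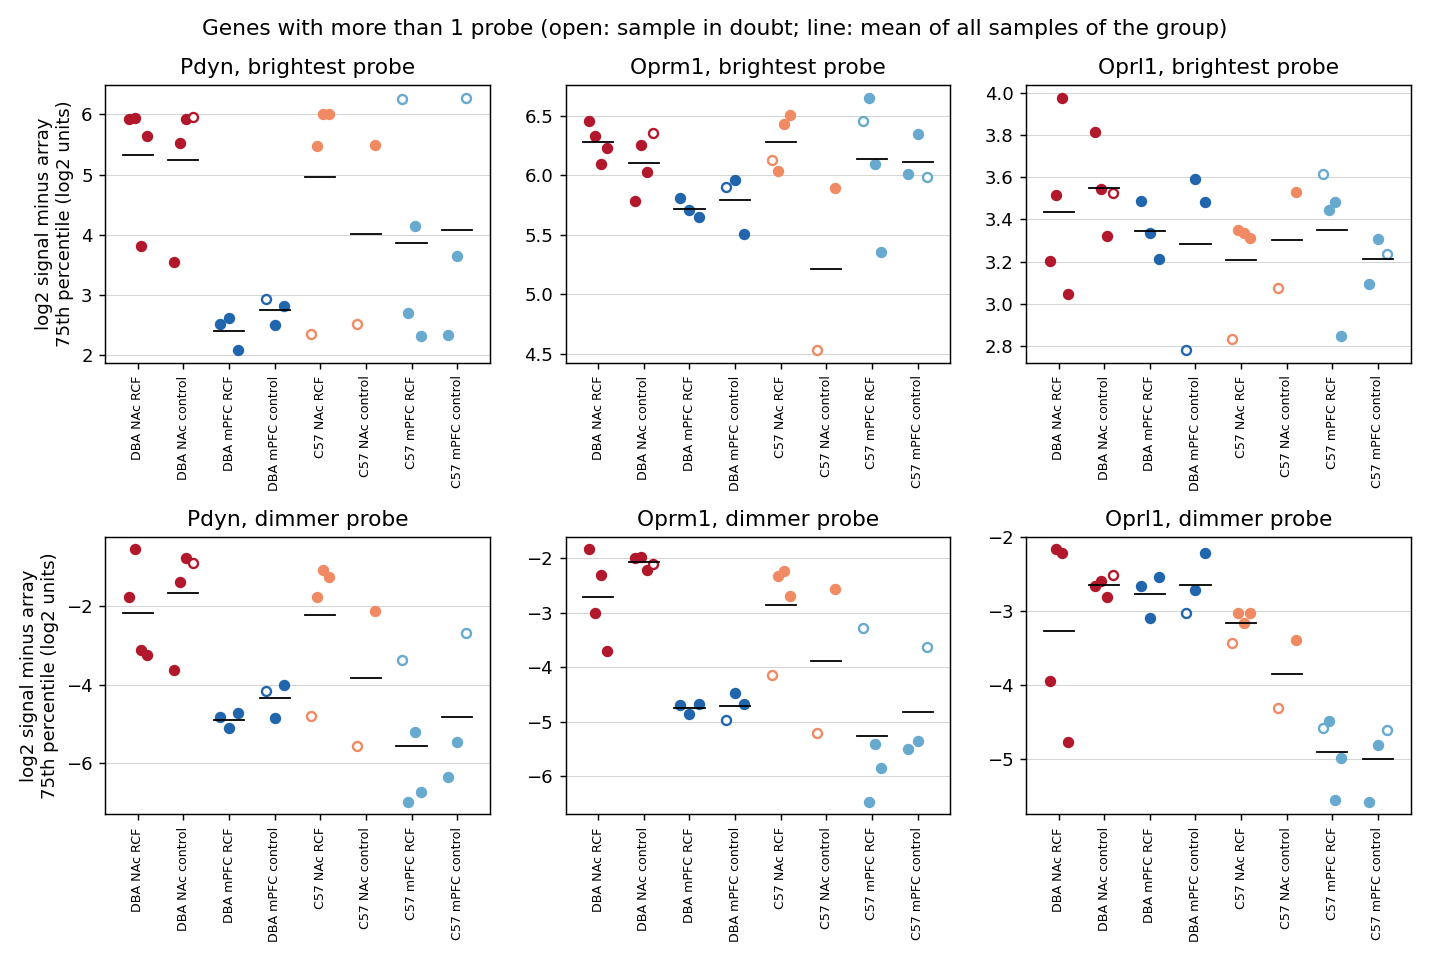
Log2 relative signal (y axes) in every sample of the 8 groups (x axes) for the brightest probe (upper row) and the dimmer probe (lower row) of Pdyn, Oprm1 and Oprl1. Open points are samples in doubt and lines are group means. Both Pdyn probes have higher group means in the DBA NAc than in the DBA mPFC, whereas the dimmer Oprm1 probe separates the regions far more than the bright one and the dimmer Oprl1 probe is low in the C57 mPFC.

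Across samples, Penk, Pdyn and Oprk1 tracked the region score closely, including in the samples in doubt. Over the 27 samples Pearson's r with the score was 0.948 for Penk, 0.911 for Pdyn and 0.949 for Oprk1, −0.605 for Oprd1, 0.472 for Oprm1, 0.274 for Oprl1 and 0.242 for Pnoc. All values of 1 array share its scaling, and the points fall into a low and a high cluster, so these are descriptions. Between members, r was 0.937 for Penk with Pdyn, 0.925 for Penk with Oprk1 and 0.917 for Pdyn with Oprk1. It was −0.741 for Pnoc with Oprd1, and −0.830 when each sample was set against its group mean. DBA NAc RCF 3 and DBA NAc control 1 contribute to the last value: they had the highest Pnoc and the lowest Oprd1 of the series (−4.46 and −3.97). In these samples the striatal list averaged 1.57 each, against 3.19 to 3.92 in the other DBA NAc samples, and the cortical list averaged −2.82 and −2.35, within the −3.71 to −0.16 of the other DBA NAc samples. All 12 striatal and all 12 cortical markers were measured, and their part in the Pnoc and Oprd1 values was not tested.

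**Figure D4:**
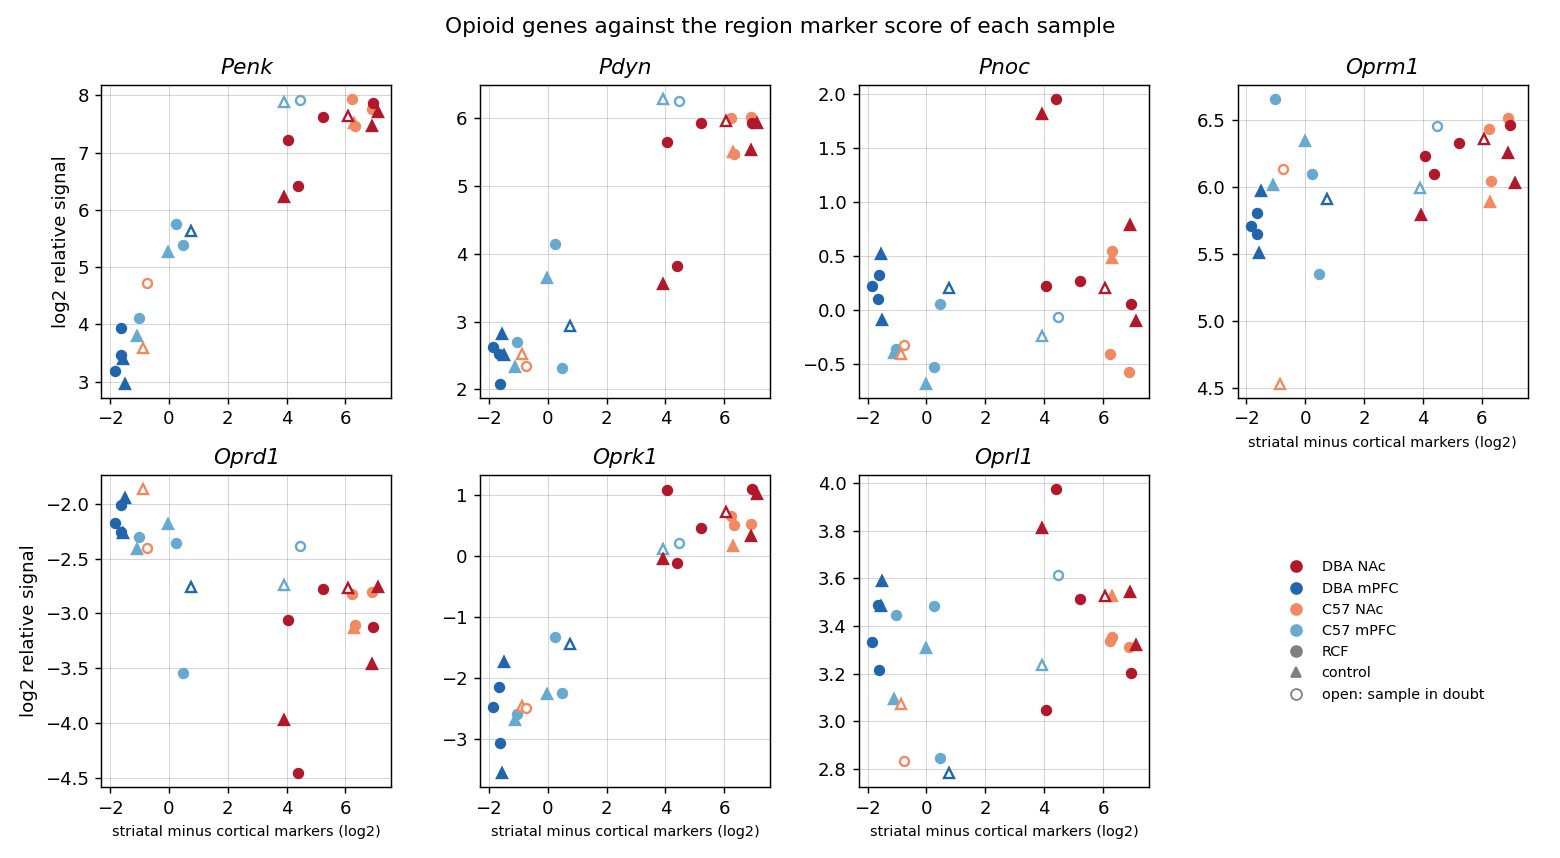
Log2 relative signal of the brightest probe (y axes) against the region score, striatal minus cortical markers (x axes, log2 units), for the 27 samples. Colours give strain and region, circles RCF, triangles control, and open symbols samples in doubt. Penk, Pdyn and Oprk1 rise with the score (r from 0.911 to 0.949), and 2 DBA NAc samples lie apart for Pdyn, Pnoc and Oprd1.

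Among the 13726 named genes well above background on all arrays, those most like a member, as far as they are reported here, were found by Pearson's r over the 27 samples. For Penk these were Cartpt (a peptide precursor of the accumbens, r = 0.989), Carhsp1 (0.986) and Syndig1l (0.983). For Pdyn they were Rarb (a retinoic acid receptor, 0.979), Drd1 (the D1 dopamine receptor, 0.971) and Tac1 (the substance P precursor, 0.97). For Oprk1 they were Kctd8 (0.973), Slc5a7 (the choline transporter, 0.962) and Drd1 (0.958). The bright Oprm1 probe was most like Pdcd4 (0.986), Itgam (0.983) and Snap23 (0.978), none of which is a striatal marker here. For Oprd1 the nearest were Neu2, Prkcb and Kcnh3 (0.898 to 0.899), for Pnoc Zfp783 (0.897) and Tuft1 (0.888), and for Oprl1 Slc1a6 (0.839) and Lgmn (0.82).

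Between strains, 1 of 28 tests of a member was called with all samples: Oprm1 was higher in the NAc of control DBA mice than of control C57 mice. The bright probe read 5.79, 6.25, 6.03 and 6.36 in DBA NAc control samples, against 4.53 and 5.89 in C57 NAc control samples. The difference was 0.90 ± 0.30 (limma, adjusted p = 0.0418), where 17.2% of all features were called, 6.08% higher and 11.1% lower, so that 35.4% of calls were higher (46.9% with quantile normalization). It rests on the sample at 4.53, which is in doubt: without C57 NAc control 1 and 3 it was 0.22 (adjusted p = 0.84), and without all samples in doubt 0.13 ± 0.34. It also lost its call without DBA NAc control 2 (adjusted p = 0.087), control 3 (adjusted p = 0.063) or control 4 (adjusted p = 0.076). The dimmer probe gave 1.81 ± 0.73 (limma, adjusted p = 0.0916) with all samples and 0.50 ± 0.50 without those in doubt. In the mPFC of RCF mice it was higher in DBA mice by 1.17 ± 0.35 without the samples in doubt, but not called with them (0.51). The dimmer probe was well above background on only 3 of 4 C57 mPFC RCF and 2 of 4 C57 NAc control arrays.

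In the mPFC, Penk was lower in DBA than in C57 mice on average. It was 3.47, 3.18 and 3.93 in DBA mPFC RCF samples, against 7.92 (in doubt), 4.12, 5.75 and 5.38 in C57 mPFC RCF samples, and the groups did not overlap. The difference of −2.27 ± 0.99 did not pass (adjusted p = 0.0783), where 35% of all features were called (21.7% higher and 13.3% lower) and 13609 had an unadjusted p under 0.05. Of the features called 61.9% were higher in DBA mice, and 41.6% with normexp. It was called at −1.56 ± 0.47 (adjusted p = 0.0163) without the samples in doubt, in a setting with 34.6% of all features called. In control mice the difference was −1.65 ± 1.06, and −1.34 ± 0.57 (adjusted p = 0.11) without the samples in doubt. The region score beside these values was −1.84 to −1.50 in the DBA and −1.10 to 0.47 in the C57 mPFC samples that fitted their labels, and the striatal markers averaged 0.27 to 0.46 and 0.51 to 1.73. The part of striatal RNA in the Penk difference was not tested. No member was called between strains in the mPFC of control mice (24.4% of all features called, 16% higher and 8.43% lower, and 10932 with an unadjusted p under 0.05). The same held for the NAc of RCF mice (15.8%, with 4.99% higher and 10.9% lower, and 8606 with an unadjusted p under 0.05).

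The dimmer Oprl1 probe differed between strains in the mPFC, where the bright one did not. It read −2.66, −3.10 and −2.55 in DBA mPFC RCF samples, against −4.58, −4.49, −5.55 and −4.99 in C57 mPFC RCF samples. Control mice had −3.02, −2.72 and −2.22 in the DBA mPFC, against −5.58, −4.82 and −4.61 in the C57 mPFC, and neither pair of groups overlapped. The differences were 2.14 ± 0.45 (adjusted p = 0.000926) and 2.35 ± 0.48 (adjusted p = 0.00136), where 35.6% and 25.3% of probes were called, and they stayed called without the samples in doubt (2.24 and 2.73). DBA mPFC control 1, which carried C57 strain markers and had low Xist, lay at −3.02, above every C57 mPFC sample. The bright probe differed by 0.00 ± 0.22 in RCF and 0.07 ± 0.23 in control mice.

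The difference between regions was itself compared between the strains, over the mean of both treatments. It was larger in DBA than in C57 mice by 2.96 ± 1.02 for Penk (limma, adjusted p = 0.0311) and by 0.82 ± 0.27 for the bright Oprm1 probe (adjusted p = 0.0261), 2 of 7 genes where 31.4% of all features were called, 9.89% higher and 21.5% lower. Of all calls 31.5% were higher (55.1% with normexp). Pdyn (2.19 ± 1.03, adjusted p = 0.109), Oprk1 (2.10 ± 0.83, adjusted p = 0.0563) and Oprd1 (−0.96 ± 0.40, adjusted p = 0.0677) did not pass. Without the samples in doubt, 4 of which are C57 samples on the other region's side, none was called (18.8% of all features): Penk gave 1.04 ± 0.54 (adjusted p = 0.195) and Oprm1 0.42 ± 0.28 (adjusted p = 0.315). Without C57 NAc control 1 and 3 alone, Penk gave 1.98 (adjusted p = 0.175) and Oprm1 0.48 (adjusted p = 0.176). Penk also lost its call without C57 mPFC control 3, DBA mPFC control 2 and 4, DBA mPFC control 3 or DBA mPFC RCF 2 (2.41 to 2.88, adjusted p up to 0.07), and Oprm1 without DBA mPFC control 3 (0.75, adjusted p = 0.052). Both calls were also lost with normexp background correction (Penk 2.94, Oprm1 0.74), and that of Oprm1 with quantile normalization (0.56). The dimmer Oprm1 probe was not called with all samples (0.65 ± 0.67, limma adjusted p = 0.478). Without the samples in doubt it had the other sign (−0.91 ± 0.41). The dimmer Oprl1 probe gave −1.69 ± 0.46 (adjusted p = 0.00833), and −2.23 ± 0.59 (adjusted p = 0.0138) without the samples in doubt.

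After RCF no opioid gene was called in either strain or region, against 0.593% of all features in the C57 NAc (0.0729% higher and 0.52% lower) and 0% in the DBA NAc, DBA mPFC and C57 mPFC. At an unadjusted p under 0.05, limma gave 3353, 607, 469 and 745 features in that order, out of 30165. In the DBA NAc the RCF minus control differences of the 7 genes, by their brightest probes, lay between −0.12 and 0.17. Penk was 7.28 ± 0.64 in RCF and 7.27 ± 0.70 in control samples (SD, n = 4 each), and the 95% interval of the difference ran from −1.88 to 1.91. Without the 6 samples in doubt, 1 of which is DBA NAc control 4, the Penk difference was 0.14 ± 0.44. Pdyn was 5.33 ± 1.01 in RCF and 5.24 ± 1.14 in control samples, with a 95% interval of the difference from −1.83 to 2.00. The intervals were narrowest for the bright probes of Oprl1 (−0.54 to 0.30) and Oprm1 (−0.33 to 0.68). Differences of the order of 1 log2 unit were outside both of these but inside the intervals of Penk, Pdyn and Oprk1 (−1.41 to 1.65). The dimmer probes differed by −0.63 ± 0.41 for Oprl1 and −0.64 ± 0.60 for Oprm1, not called. The narrow intervals therefore hold for the bright probes only.

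In the DBA mPFC the differences lay between −0.48 (Penk) and 0.18 (Oprd1), and in the C57 mPFC between −0.23 (Pdyn) and 0.21 (Pnoc). Penk in the DBA mPFC had a 95% interval from −2.66 to 1.71, and its difference was 0.34 ± 0.52 without the 6 samples in doubt, 1 of which is DBA mPFC control 1. In the C57 NAc the bright Oprm1 probe read 6.13 (in doubt), 6.04, 6.43 and 6.51 in RCF samples, against 4.53 (in doubt) and 5.89 in control samples. These values did not overlap, which so few samples can also do by chance. The share of all features without overlap is not given here. The difference was 1.07 ± 0.30 (unadjusted p = 0.00164, adjusted p = 0.125). Without the samples in doubt it was 0.44 ± 0.34. The dimmer probe gave 1.03 ± 0.73 (limma, adjusted p = 0.641) with all samples and 0.15 ± 0.50 without those in doubt. Penk (1.41 ± 1.12), Pdyn (0.95 ± 1.13) and Oprk1 (0.95 ± 0.90) were also higher on average in C57 NAc RCF samples, beside region scores of −0.75 to 6.89 in RCF and −0.87 to 6.29 in control samples. Without the samples in doubt they differed by 0.19 ± 0.66, 0.34 ± 0.86 and 0.41 ± 0.61. No member passed in the 4 interactions of treatment with strain or region, in which no feature was called and 325 to 2311 had an unadjusted p under 0.05.

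**Figure D5:**
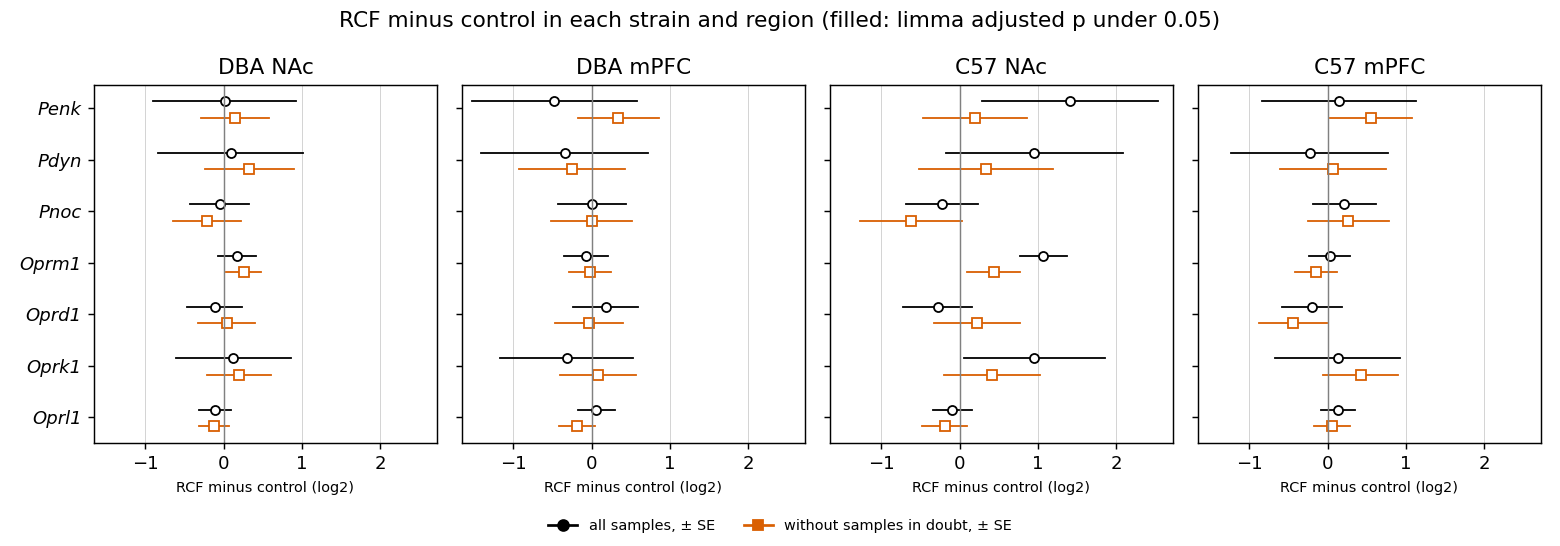
RCF minus control difference (x axes, log2 units, ± SE) of the 7 genes in the 4 strain and region combinations, with all samples (black circles) and without those in doubt (orange squares). All symbols are open, since no adjusted p was under 0.05. The DBA NAc differences lie between −0.12 and 0.17 with all samples.

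Genes around the opioid system were described from 4 lists. All 36 listed genes were measured, and none was called after RCF in any strain and region. Values of listed genes use all 27 samples, and values without the 6 in doubt are not given here. C57 NAc RCF 1 and C57 mPFC RCF 1, which lay on the other region's side, enter the comparisons with RCF C57 mice. Of 7 genes of opioid peptide processing, none was higher in the NAc than in the mPFC of DBA mice, while 2 were lower in RCF and 1 in control mice, where 27.1% and 27.6% of all features were lower. Pcsk2, the convertase that cleaves proenkephalin and prodynorphin, was lower in the NAc by 1.36 ± 0.39 in RCF (adjusted p = 0.00887) and 1.55 ± 0.39 in control mice (adjusted p = 0.00364), while its substrates Penk and Pdyn were higher there in RCF mice. Pam, which amidates peptides, was lower by 1.29 ± 0.50 in RCF mice (adjusted p = 0.0468). Between strains, Pam was higher in DBA mice by 3.03 ± 0.50 in the mPFC of RCF (adjusted p = 0.000145), by 1.68 ± 0.54 in the mPFC of control (adjusted p = 0.0266) and by 1.71 ± 0.47 in the NAc of RCF mice (adjusted p = 0.014). Scg5, the chaperone of Pcsk2, was higher in DBA by 1.04 in the mPFC and 1.08 in the NAc of RCF mice, and Pcsk1n, an inhibitor of the convertase Pcsk1, by 0.54 in the NAc of RCF mice.

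Of 7 genes of opioid peptide breakdown, 2 were higher and 2 lower in the NAc of DBA mice under each treatment, where 39% (RCF) and 38.3% (control) of all features were called. Mme (neprilysin, which cleaves enkephalins) was higher by 2.42 ± 0.73 in RCF (adjusted p = 0.0118) and 1.94 ± 0.73 in control mice (adjusted p = 0.0387), and Ece2, an endothelin-converting enzyme, by 1.33 and 1.53. Ace, which also cleaves enkephalins, was lower by 0.77 and 0.80, and it was higher in the DBA than in the C57 mPFC by 1.18 in RCF and 1.14 in control mice. The aminopeptidase Npepps was lower in the NAc of RCF C57 mice by 0.43 ± 0.10 (adjusted p = 0.0134).

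Of 17 signalling genes, 4 were higher and 9 lower in the NAc of RCF DBA mice, and 3 higher and 10 lower in that of control DBA mice. Over all features 11.9% were higher and 27.1% lower in RCF mice, and 10.7% and 27.6% in control mice. The list had a median difference of −0.48 in RCF and −0.50 in control mice, against −0.14 and −0.13 for all features. Subunits of the potassium channels that opioid receptors open moved in opposite directions. Kcnj5 was higher by 3.32 ± 0.90 in RCF (adjusted p = 0.00613) and 3.64 ± 0.90 in control DBA mice (adjusted p = 0.00314), while Kcnj3, Kcnj6 and Kcnj9 were lower by 1.64, 1.51 and 1.67 in RCF mice. The calcium-stimulated adenylyl cyclase Adcy1 was lower by 2.20 and 2.98 (adjusted p = 0.013 and adjusted p = 0.00157). The G protein subunit Gnai2 was higher by 0.70 in RCF DBA mice. Grk2, a kinase that phosphorylates activated receptors, was lower in the NAc of RCF C57 mice by 0.92 ± 0.21 (adjusted p = 0.012) and of DBA mice by 0.73 in both treatments.

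Between strains, 5 of the 17 signalling genes were higher and 2 lower in the mPFC of RCF DBA mice, where 21.7% of all features were higher and 13.3% lower, so the share called was near that of all features (35%). These were Arrb2 (an arrestin, 0.94), Gnaz (1.49), Gnao1 (0.58), Kcnj6 (1.08) and Kcnj9 (1.76) on the higher side, and Gnai2 (−0.47) and Rgs9 (−3.15 ± 1.20, adjusted p = 0.0451) on the lower. Rgs9, which shortens G protein signals in the striatum, is 1 of the 12 striatal markers of the region score. In control mice Arrb2 (0.79) and Gnaz (1.24) were higher in the DBA mPFC, and none was lower. In the NAc, Arrb2 was higher in RCF DBA mice (0.81 ± 0.16, adjusted p = 0.00126) and Gnai2 lower in control DBA mice (−0.60 ± 0.17, adjusted p = 0.0166).

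Of 5 other opioid peptide or binding genes, Pomc, the precursor of beta-endorphin, was higher in the NAc of DBA than of C57 mice by 0.97 ± 0.15 in RCF (adjusted p = 9.54e-05) and 0.61 ± 0.18 in control mice (adjusted p = 0.0224). It was also higher in the NAc than in the mPFC of DBA mice, by 0.58 in RCF and 0.42 in control mice. Ogfr, which binds a proenkephalin fragment, was lower in the DBA than in the C57 mPFC by 0.46 in RCF and 0.50 in control mice and higher in the NAc of RCF DBA mice than in their mPFC by 0.39. Ackr3, a scavenger of opioid peptides, was lower in the NAc than in the mPFC by 0.79 in RCF DBA mice, and Ogfrl1 by 0.78 ± 0.22 in RCF C57 mice (adjusted p = 0.0323).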

How the data were processed

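The deposited scanner files hold a background-subtracted, detrended spot intensity per array, without scaling between arrays, written by Agilent Feature Extraction 10.7.3.1 per the file headers. The deposited series matrix holds log2 values whose columns each equal 1 scanner file up to a constant. For 29 of 31 arrays that file is listed with another sample, for 27 with one of another group. Each array was given the sample of its matrix column (lowest r 0.999994, highest r with another column 0.998). As matched, 5 arrays lay on the wrong side of the region midpoint and 2 of the strain midpoint, as listed 15 and 16. The submitters' processing notes name limma with no stated role. No sample column was left unused.

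Log2 intensity minus the array's 75th percentile was analysed. A probe was tested if 3 or more arrays of a group had it well above background and it was an outlier on at most 50% of arrays (43417 of 55681 probes). The share of probes well above background was 58.6% to 81.9% by array, and precision is limited by how many samples there are. The brightest probe stood for a gene (30165 features, named by RefSeq accession). The 4 near-duplicate pairs of arrays (ratio of array to spot spread 0.87 to 1.64, against 3.62 to 12.2 in other pairs of the 45) were averaged. The limit for averaging and the matching of arrays were chosen after values were seen. None of the brightest opioid probes was saturated, and all were well above background on 31 arrays.

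Differences were tested with limma 3.58.1 in R 4.3.3 (moderated test with intensity trend, 17 comparisons, Benjamini-Hochberg over all features, threshold 0.05), after a test on simulated data. The rest used matplotlib 3.10.9, pandas 2.3.3, numpy 2.4.6 and Python 3.11.15. The members and lists were chosen with earlier results of these data known. Named were all members, the 3 genes most like each, listed genes called after RCF or between strains, and up to 4 a list with the smallest p between regions; other listed genes named were chosen after their values were seen, and 3 genes under this rule are not reported here. The files' genome build is older than that of the promoters, so no gene coordinates are given.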

Additional observations from a re-analysis of the deposited data

Results flagged for a closer look

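Each of the 7 genes was tested in each group of 4 samples for a sample far from the others. Of these 28 tests, 8 had one. Chance flags about 1 in 20 independent tests. These tests share samples and correlated genes, so their count cannot be set against that rate. C57 NAc RCF 1, a sample in doubt, stood apart for Penk (4.72, next 7.46), Pdyn (2.35, next 5.48), Oprk1 (−2.48, next 0.52) and Oprl1 (2.83, next 3.31). DBA NAc RCF 3 stood apart for Pdyn (3.82, next 5.64) and Pnoc (1.95, next 0.27), and DBA NAc control 1 for Penk (6.23, next 7.47). C57 mPFC RCF 4 was low for Oprd1 (−3.54, next −2.39).

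The regional difference itself differed between the strains for Penk (2.96 ± 1.02, limma adjusted p = 0.0311) and the bright Oprm1 probe (0.82 ± 0.27, adjusted p = 0.0261). Neither of these passed without the samples in doubt. The dimmer Oprm1 probe did not pass with all samples (0.65 ± 0.67, limma adjusted p = 0.478).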

How the results depend on the processing

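Each comparison was repeated under 13 to 16 alternatives, depending on the comparison and gene, and with each of 27 samples left out in turn. Of the alternatives, 3 were chosen after seeing the data (the dimmer probes, and leaving out DBA NAc control 1 and RCF 3 alone or with the samples in doubt). Where no cause is given, the cause was not tested. Shares of all features called under each alternative are not given beside the counts below, only ranges of called counts at the end. A changed count is therefore a description and cannot be set against its share. The numbers of opioid genes called, 4 (NAc minus mPFC, RCF DBA), 2 (control DBA), 1 (DBA minus C57, NAc control), 2 (strain by region) and 0 elsewhere, changed as follows. The strain by region count was 0 with normexp. Quantile normalization gave 1 for RCF minus control in the C57 NAc. The mean of a gene's probes gave 1 between regions in RCF C57, 4 in control DBA, 1 between strains in the mPFC of RCF and 1 of control mice, and 1 for strain by region. With 31 separate arrays, which takes near-duplicate arrays as separate samples, the counts were 4 in control DBA, 1 for RCF in the C57 NAc and 4 for strain by region. The replicate block on 31 arrays gave the same 4, 1 and 4. Whether equal replicate numbers mark 1 animal is not known. The median r was 0.0145 over 105 same-numbered pairs and 0.0049 over 315 others. These pairs include samples of different strains or treatments, which cannot be 1 animal, so the medians cannot decide it. Scanner files as listed gave 0 between regions in RCF and in control DBA, 4 between strains in the mPFC and 4 in the NAc of RCF mice, 0 in the NAc of control mice and 0 for strain by region. Without the samples in doubt the counts were 3 in RCF C57, 2 in control C57, 4 in control DBA, 1 between strains in the mPFC of RCF mice, 0 in the NAc of control mice and 0 for strain by region, and with DBA NAc control 1 and RCF 3 also left out 3, 3, 4, 1, 0 and 1. Only the compared groups in the fit gave 1 between strains in the mPFC of RCF mice and 0 in the NAc of control mice. Leaving out 1 sample gave 2 to 5 in RCF DBA, 0 to 4 in control DBA, 0 to 1 in control C57, 0 to 1 (mPFC RCF) and 0 to 2 (NAc control) between strains, 0 to 1 for RCF in the C57 NAc, 0 to 1 for strain by treatment in the NAc and 0 to 5 for strain by region. The 2 in RCF DBA came without DBA mPFC RCF 1 and 3. Control DBA had 0 without DBA mPFC control 3, 1 without control 2 and 4, and 4 without C57 mPFC RCF 4 or DBA NAc RCF 3. Between strains, the mPFC of RCF mice had 1 without C57 mPFC RCF 2 or 4, and the NAc of control mice 0 without C57 NAc control 1 and 3 or DBA NAc control 2, 3 or 4. Strain by region had 0 without DBA mPFC control 3 or C57 NAc control 1 and 3, and 1 without C57 mPFC control 3, DBA mPFC control 2 and 4 or DBA mPFC RCF 2. Without C57 NAc control 2 and 4 the counts were 5 for strain by region, 2 for strain in the NAc of control mice, and 1 each for control C57, RCF in the C57 NAc (also without C57 mPFC RCF 4) and strain by treatment in the NAc.

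Directions turned as follows. As listed, Penk was −0.0454 and Oprd1 0.0720 between regions in RCF DBA, Penk 3.47, Pdyn 2.59, Oprd1 −1.12 and Oprk1 2.42 between strains in the mPFC of RCF mice, and Oprm1 −0.18 in the NAc of control mice. Penk between regions in control C57 was 2.99 without the samples in doubt, with or without the further 2, and Pdyn 2.50 without all of these. Oprl1 between strains in the mPFC of RCF mice was 1.07 as a mean of probes and 2.14 by its dimmer probe, which also gave 1.74 between regions in RCF C57 and −1.69 for strain by region. Leaving out 1 sample, Penk and Oprk1 in RCF DBA were called in all 27 fits (3.56 to 4.04 and 2.94 to 3.45). Over all features, called counts ranged over the alternatives from 0 to 13754 of the main 11773 in RCF DBA, 30 to 13624 of 11557 in control DBA, 0 to 7148 of 2322 in RCF C57, 0 to 2371 of 30 in control C57, 5815 to 12805 of 10571 (mPFC RCF), 270 to 9133 of 7357 (mPFC control), 2420 to 13639 of 4781 (NAc RCF) and 1437 to 9778 of 5184 (NAc control) between strains, and 0 to 11864 of 9483 for strain by region. For RCF minus control they ranged from 0 to 11499 of 179 in the C57 NAc, and up to 5634 in the DBA NAc, 6429 in the DBA mPFC and 8529 in the C57 mPFC, with the upper ends from the scanner files as listed, under which no opioid gene was called after RCF. The median difference of all features between regions was −0.14 and −0.13 in RCF and control DBA, and −0.03 and −0.01 with quantile normalization.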
